A study of Mus musculus with 5 samples.

Results

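The late and the early phase of the macrophage response to lipopolysaccharide (LPS), a bacterial outer membrane component, were compared through the library taken after 24 h and the library taken after 4 h, 2 of the 5 RNA sequencing libraries of the series. The comparison used the genes with a mean of at least 1 FPKM (fragments per kilobase of transcript and per megafragment mapped) over the 5 libraries, 9795 of the 13339 genes listed. Cbx7 lay just inside this limit, with a mean of 1.002 FPKM, and Unc5b just outside, with 0.998. All libraries came from macrophages of 8-week C57BL/6 mice, grown from marrow for 5 days with the growth factor M-CSF, and the titles mark them WT2, read here as wild type. LPS was given at 100 ng/ml for 0, 4, 8, 12 or 24 h. Each time was 1 library, so the difference had no replicate check and no test was possible, and every statement below compares these libraries rather than the conditions. Unstimulated cells kept for 4 or 24 h are not analysed here, so the effects of LPS and of the hours in culture cannot be told apart. In bulk RNA, fewer cells of a type and less RNA per cell cannot be told apart either.

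LPS is sensed by TLR4, which activates NF-kB, the AP-1 factors and, through interferon beta made by the cell itself, the STAT factors of the interferon response. Transcripts of cytokines, chemokines and immediate regulators are short-lived and depend on continued transcription, and several of the induced proteins shut the pathway down again. Macrophages held in LPS for longer are known for high glycolysis, acute-phase and iron-binding proteins, and an antioxidant response driven by the factor NRF2.

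Differences are given as 24 h minus 4 h on the log2(FPKM + 1) scale after each library was centred on its median gene, and genes were called higher or lower where this difference reached 1, which is 2-fold. The added 1 understates the differences of low genes. The median gene stood at 3.03 in the 4 h library and 3.56 in the 24 h library, a shift of 0.53 that centring removed, so the FPKM values, which are given as deposited, carry this shift and the differences do not. Steps between the low values of short transcripts placed the depth at about 18.9 M reads (megareads) for 4 h and 19 M for 24 h, an estimate made from the values themselves. Intervals quoted below are 95% Poisson intervals at this depth and cover counting error only.

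Of the 9795 genes, 876 were higher (8.94%) and 1572 lower (16.0%) at 24 h than at 4 h, and 7347 lay within 2-fold. At 4-fold the counts were 144 and 426, and at 8-fold 34 and 145. Higher genes thus made up 35.8% of the genes beyond 2-fold. Without centring 75.3% were higher (2448 and 802 genes), with the libraries set to the same upper quartile 65.0%, with FPKM scaled to the same sum 69.5%, and with a trend by transcript length removed 38.5%. Each list of genes described below lies higher without centring, and lists with a median near 0 can then change sign. Part of the total moved to a few genes: the 20 largest genes took 20.3% of the summed FPKM at 4 h and 31.3% at 24 h, and Saa3 alone took 0.47% and 8.42%. The centred differences varied little with transcript length, with a median of -0.10 for the 10% of genes with the shortest transcripts and -0.13 for the 10% with the longest.

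**Figure D1:**
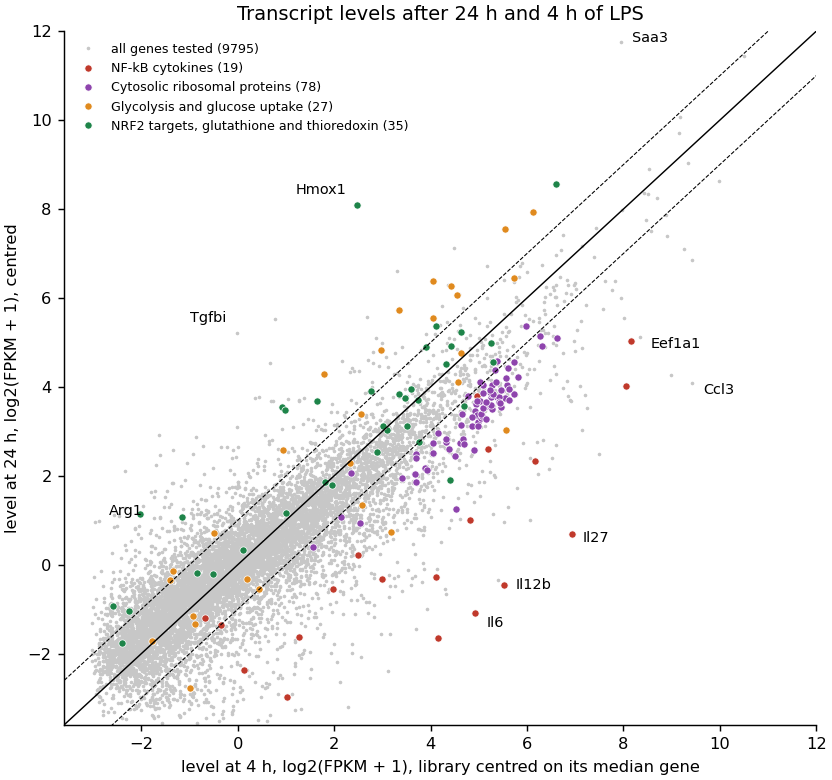
Level of each of 9795 genes after 24 h of LPS (vertical axis) against its level after 4 h (horizontal axis), both as log2(FPKM + 1) with the library centred on its median gene; the solid line marks equal levels and the dashed lines a 2-fold difference. The cytokine genes (red) and cytosolic ribosomal protein genes (purple) lie below the solid line, while Hmox1, Tgfbi and Saa3 lie above it.

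The 8 h and 12 h libraries took no part in the differences between 24 h and 4 h, though their FPKM entered the mean that chose the 9795 genes. Of the 876 genes higher at 24 h than at 4 h, 823 (93.9%) also stood higher at 12 h than at 8 h, against 45.6% of all genes tested. Of the 1572 lower genes, 1458 (92.7%) stood lower at 12 h than at 8 h, against 54.4% of all genes. By 12 h the higher genes had covered a median of 79.6% of their difference and the lower genes 61.7%. The lower genes had a median centred level of 0.09 before LPS, 2.07 after 4 h and 0.27 after 24 h, and the higher genes of -0.02, -1.34 and 0.26, so at 24 h both sets had a median close to that of the 0 h library. Both sets were chosen by their difference between 24 h and 4 h, and a set median does not show where each member lay. Medians of single lists among those described below were further from their 0 h values. The NF-kB cytokine median was -2.44 at 0 h and -0.32 at 24 h, that of cytosolic ribosomal proteins 5.79 and 3.56, and that of efferocytosis genes 3.13 and 1.41.

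The cells carried the markers of macrophages at both times. Adgre1, the F4/80 antigen, stood at 429 FPKM after 4 h and 967 after 24 h, Csf1r, the M-CSF receptor, at 363 and 446, and Cd68 at 912 and 824. Of the 12 macrophage markers, all of them tested, 4 were higher and 3 lower (median 0.20). Cd14 and Mertk, whose values are given further below, were among the lower ones. One protocol field of the labels speaks of dendritic cells, and the dendritic cell factor gene Zbtb46 was at 0.15 and 0.11 FPKM, Flt3 at 0.18 and 0.23, Xcr1 at 0.25 and 0.64 and Clec9a at 0.45 and 0.07. Of the dendritic cell list, 6 of 12 members in the table passed the filter, 1 of them higher and 2 lower (median 0.20). Its summed FPKM was 350.9 after 4 h and 1282 after 24 h, of which Bst2, also an interferon-stimulated gene, made up 291 and 1249, while Itgax, the CD11c antigen, was at 30.8 and 4.65 and Fscn1, an actin-bundling protein, at 17.8 and 8.57. Markers of neutrophils were present at 4 h and lower at 24 h. Of 10 tested, 6 were lower and 1 higher, with a median of -1.86, and the summed FPKM of the 12 in the table was 416 after 4 h and 145.6 after 24 h. Ngp, a granule protein gene, was at 39.0 and 0.28 FPKM, and Mpo, myeloperoxidase, was at 1.73 after 4 h and listed at 0 after 24 h. Platelet and erythroid markers were lower too (4 of 4 tested), as were 2 of 3 mast cell, basophil and eosinophil markers tested. Of 11 T, NK and B cell markers in the table, 2 passed the filter and both were lower, Cd4 (5.38 and 1.10 FPKM) and the kinase Lck (6.52 and 0.59). The summed FPKM of these 11 was 13 after 4 h and 3 after 24 h, and the T cell receptor component Cd3e was at 0.04 at both times. The part of these other cells in the differences below was not tested.

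Short promoter stretches of genes on either side of the comparison are shown so that the regulatory motifs named below can be seen. They come from RefSeq (GRCm38.p6), read 5′ to 3′ along the gene's strand, with the motif in capitals. For the early side, matches to the NF-kB site (kappaB, taken here by name) are shown in Il6, an inflammatory cytokine gene (chr5:30013025-30013124, plus strand), and Csf1, the gene of M-CSF (chr3:107760569-107760668, minus strand). For the late side, matches to the antioxidant response element TGACNNNGC are shown in Gclm, a subunit of the enzyme that starts glutathione synthesis (chr3:122245377-122245476, plus strand), and Prdx1, a peroxiredoxin (chr4:116685420-116685519, plus strand). Matches to the hypoxia response element core, ACGTG or GCGTG, are shown in Ankrd37 (chr8:46000001-46000100, minus strand) and Bnip3, a mitophagy receptor (chr7:138909531-138909630, minus strand). A sterol response element match, TCACNCCAC, is shown in Hmgcs1, a cholesterol synthesis gene (chr13:119690168-119690267, plus strand).
Il6: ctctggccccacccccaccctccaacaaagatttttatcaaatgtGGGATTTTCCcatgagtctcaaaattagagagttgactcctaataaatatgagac
Csf1: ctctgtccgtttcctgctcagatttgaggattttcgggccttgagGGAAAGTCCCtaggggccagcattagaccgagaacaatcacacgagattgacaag
Gclm: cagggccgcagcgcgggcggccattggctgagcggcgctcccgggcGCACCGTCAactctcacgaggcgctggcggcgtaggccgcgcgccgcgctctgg
Prdx1: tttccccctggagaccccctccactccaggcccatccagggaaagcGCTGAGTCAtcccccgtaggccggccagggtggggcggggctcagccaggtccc
Ankrd37: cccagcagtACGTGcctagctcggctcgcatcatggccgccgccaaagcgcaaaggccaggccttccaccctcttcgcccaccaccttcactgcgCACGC
Bnip3: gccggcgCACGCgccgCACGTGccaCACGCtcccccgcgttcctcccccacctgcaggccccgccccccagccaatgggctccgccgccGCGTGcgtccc
Hmgcs1: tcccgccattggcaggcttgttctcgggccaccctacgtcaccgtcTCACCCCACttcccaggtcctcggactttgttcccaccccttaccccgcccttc

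Motifs were searched on both strands in the promoters of the 8001 tested genes that had one, 10191 promoters in all. The kappaB site was in 10.4% of them, in 13.1% of the promoters of lower genes and in 10.9% of those of higher genes. By list it was in 17 of 29 promoters of NF-kB factors and inhibitors (58.6%), 5 of 13 of chemokines (38.5%) and 5 of 14 of cytokines (35.7%). Some other lists that were lower at 24 h held it less often, with 1 of 23 for TLR and JAK feedback inhibitors (4.3%) and 1 of 11 for costimulation and adhesion (9.1%). The MHC class I list, with a median difference of -0.01, held it in 10 of 21 promoters (47.6%). The interferon-stimulated response element GAAANNGAA was in 7.6% of all, 10.6% of the lower and 6.3% of the higher genes' promoters, and in 20 of 39 promoters of antiviral genes (51.3%). The sterol response element was in 1.1% of all and 1.1% of the lower genes' promoters. In the cholesterol synthesis list it was in 1 of 20 promoters (5.0%), that of Hmgcs1. The antioxidant response element was in 14.6% of all and 14.5% of the higher genes' promoters, and in 13 of 41 promoters of the NRF2 list (31.7%). The hypoxia element core, which is short and common, was in 62.7% of all promoters, 61.5% of those of higher genes, 26 of 32 of the hypoxia list (81.2%) and 31 of 39 of the glycolysis list (79.5%). For the late side, the genes counted as higher thus held these motifs about as often as all genes tested. Lists not named after a motif could hold it as often: the antioxidant element was in 4 of 11 promoters of class II genes (36.4%), and the hypoxia core in 13 of 13 of aminoacyl-tRNA synthetases and 25 of 30 of autophagy genes (83.3%). A match is a description of these letters and not a binding site.

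NF-kB cytokines, the messengers secreted within hours of TLR4 activation, were lower at 24 h almost without exception. Of 19 tested, 18 were lower and none higher, with a median of -3.32 against -0.04 over all genes, and 17 of 19 were also lower at 12 h than at 8 h. Il27, a cytokine subunit, stood at 1.26 FPKM before LPS, 993 after 4 h, 274 after 8 h, 89.4 after 12 h and 18.0 after 24 h, a centred difference of -6.24. Il6 (chr5:30013114-30019975, GRCm38), which carries the kappaB match printed above, stood at 0.10, 247, 71.2, 27.5 and 4.61 FPKM at the 5 times (interval 243 to 252 after 4 h and 4.00 to 5.29 after 24 h), a difference of -6.0. These genes were highest at 4 h and lower at each later time, though still above their 0 h value at 24 h. Il12b, a subunit of cytokines that steer T cells, went from 376 after 4 h to 7.62 after 24 h. Tnf, the tumour necrosis factor gene, went from 2183 to 189 FPKM, where it remained above its 0 h value of 9.93. Il10, an anti-inflammatory cytokine, was lower as well, at 139.8 and 8.73 FPKM. Osm was the member within 2-fold, with a difference of -0.53.

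Chemokines, which attract leukocytes, divided. Of 21 tested, 15 were lower, 6 within 2-fold and none higher (median -1.95). The neutrophil and monocyte attractants were far lower: Ccl3 stood at 5651 FPKM after 4 h, 1671 after 8 h, 833 after 12 h and 199.8 after 24 h, and Cxcl1 at 104, 17.4, 12.5 and 3.34. Ccl5, a T cell attractant, instead stood at 4730.1 FPKM after 4 h and at 10475, 10084 and 12779 at the later times, a difference of 0.90. The chemokine receptor gene Cxcr4 went opposite to most ligands, at 142 FPKM before LPS, 1.31 after 4 h and 18.5 after 24 h. Ccrl2, an atypical receptor that binds chemerin, was at 493 after 4 h and 77.3 after 24 h.

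The NF-kB factors and their inhibitors were lower together. Of 25 tested, 20 were lower and none higher (median -1.36), or 11 and 1 without centring (median -0.83). Among the factors, Nfkb1 stood at 219 FPKM after 4 h and 35.2 after 24 h, and Rel at 34.2 and 6.85. Among the inhibitors, Tnfaip3, a ubiquitin-editing enzyme, stood at 548 and 61.7, and Nfkbiz, a nuclear IkB protein, at 244 and 30.6. Feedback inhibitors of the TLR and JAK pathways followed, with 14 of 23 lower and 2 higher (median -1.30; 10 and 2 without centring), among them Dusp2, a MAP kinase phosphatase (280.0 and 42.0 FPKM), Zfp36, which destabilises cytokine mRNA (793 and 229), and Socs1 (132 and 39.0). Irak3, which blocks signalling at the TLR adaptor complex, did not follow: it stood at 38.8 FPKM after 4 h, 101 after 12 h and 60.9 after 24 h, a difference of 0.10. Dusp4, another MAP kinase phosphatase, was higher, at 1.99 and 8.59. Of 25 immediate early and AP-1 genes, 14 were lower and 2 higher (median -1.09), or 9 and 3 without centring. Junb was at 346 and 154 FPKM and Ier2 at 32.5 and 8.87, but Fos stood at 17.0 FPKM before LPS, 4.55 after 4 h and 16.0 after 24 h and Klf10 at 7.96, 1.35 and 11.4, so both were low at 4 h and near or above the 0 h value at 24 h.

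Surface and receptor genes of the early response were lower as well. Of 16 costimulation and adhesion genes, 11 were lower and 2 higher (median -2.51). Cd40, the receptor for T cell help, stood at 749.9 FPKM after 4 h, 659 after 8 h, 261 after 12 h and 62.1 after 24 h. Cd83 was at 161 and 6.52 after 4 h and 24 h, Cd69 at 394 and 27.8, and Icam1, an adhesion ligand, at 977 and 154. The 2 higher members were Marco, a scavenger receptor (9.97 FPKM after 4 h and 161 after 24 h), and Cd38, an ectoenzyme that consumes NAD (21.2 and 114). Of 26 Toll-like receptors and adaptors 6 were lower and 2 higher, with a median of -0.12, whereas 4 were lower and 8 higher without centring (median 0.41). Tlr2 was at 198 and 22.9 FPKM and the LPS co-receptor Cd14 at 931 and 206, while Tlr13, a sensor of bacterial ribosomal RNA, was at 101 FPKM before LPS, 14.3 after 4 h and 97.7 after 24 h. Tlr4 itself lay within 2-fold (6.01 and 15.5 FPKM, a difference of 0.70).

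**Figure D2:**
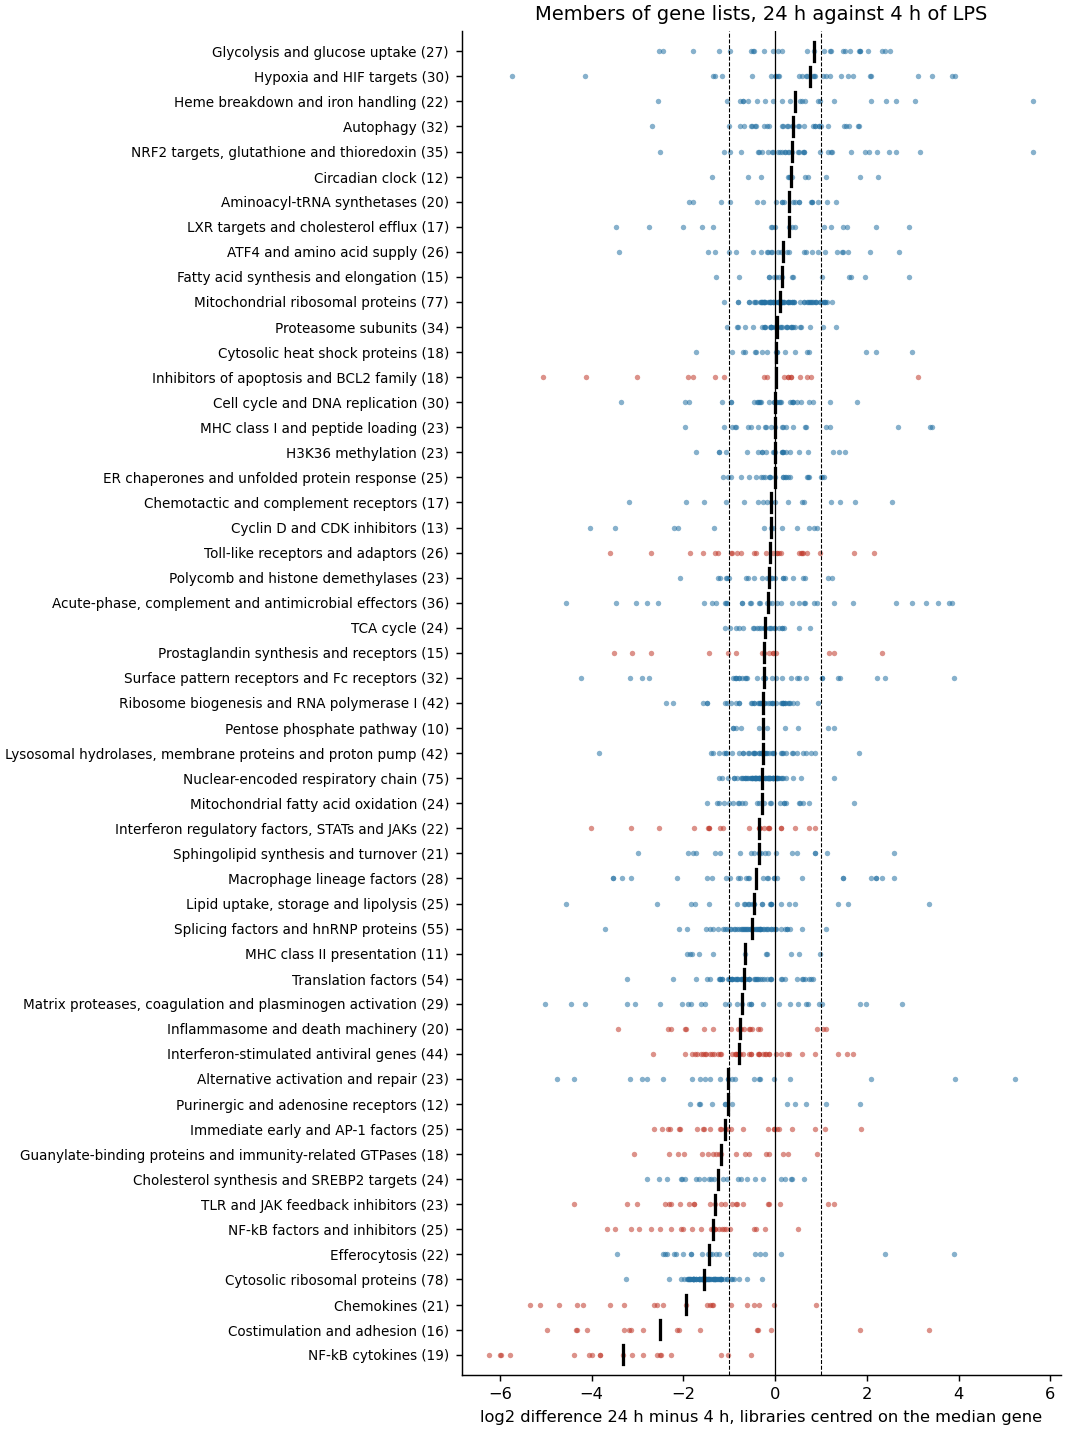
Centred log2 difference between 24 h and 4 h of LPS (horizontal axis) for each tested member (points) of 53 gene lists, with the number tested in brackets; the black bar is the list's median, red points belong to lists of the early response, and the dashed lines mark 2-fold. Cytokines, costimulation genes, chemokines and cytosolic ribosomal proteins stand at the bottom and glycolysis and hypoxia genes at the top.

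Interferon-stimulated antiviral genes stayed closer to their 4 h level than the cytokines. Of 44 tested, 15 were lower, 26 within 2-fold and 3 higher, with a median of -0.78. Without centring 7 were lower and 5 higher (median -0.25). Ifih1, a sensor of viral RNA, stood at 331 FPKM after 4 h and 75.3 after 24 h, and Cmpk2 at 2039 and 751, still far above their 0 h values of 7.04 and 8.27. Isg15, a ubiquitin-like modifier, stood at 1051, 1886, 1565 and 869.6 FPKM from 4 h to 24 h, a difference of -0.81. Bst2, which tethers budding virus, was higher, at 291 and 1249 FPKM, and Irf7, the factor that amplifies interferon production, was at 472 and 1251, a difference of 0.87. Ifnb1, the interferon beta gene, was at 7.87 FPKM after 4 h and 1.29 after 24 h. Guanylate-binding proteins and immunity-related GTPases, which attack vacuoles of microbes, had 10 of 18 members lower and none higher (median -1.19), or 5 and 1 without centring (median -0.66), led by Gbp5 with 1113 and 189 FPKM. These and the Ifi genes are families of close copies among which reads may be divided, so their values are uncertain. Of 22 IRF, STAT and JAK genes 9 were lower and none higher (median -0.36), but without centring 4 were lower and 2 higher and the median lay above 0, at 0.18. The lower members included Stat5a (85.8 and 6.81), Irf8 (305 and 49.0) and Irf1 (545 and 136).

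Enzymes and effectors of the early phase were divided. Of 15 genes of prostaglandin synthesis and its receptors 5 were lower and 3 higher (median -0.24), and without centring 3 and 3 (median 0.30). Ptgs2, the inducible cyclooxygenase, stood at 658 FPKM after 4 h, 359.7 after 8 h, 248 after 12 h and 82.0 after 24 h. Ptges, the prostaglandin E synthase that acts after it, was instead at 52.5, 390.2, 453 and 173, a difference of 1.17, and the receptors for its product went opposite ways: Ptger4 was at 13.4 FPKM after 4 h and 2.17 after 24 h, Ptger2 at 0.75 and 11.9. Among inflammasome and death genes 7 of 20 were lower and 2 higher (median -0.76, or -0.22 without centring), with the sensor Nlrp3 at 174 and 22.7 FPKM and the sensor Nlrc4 at 1.75 and 7.55. Of 18 inhibitors of apoptosis and BCL2 family genes 7 were lower and 1 higher, but 9 lay above 0 and 9 below (median 0.01, or 0.55 without centring). The survival genes Bcl2a1d (548 and 22.9 FPKM) and Bcl2a1b (1159 and 95.7) were lower, but they are near-identical copies and their reads may be divided among them. Bnip3, in contrast, was at 7.08 and 100.1 FPKM. Of 29 genes of matrix proteolysis and coagulation 13 were lower and 4 higher (median -0.72), against 10 and 8 without centring (median -0.18). The collagenase Mmp13 was at 1473 and 65.1 FPKM, while Adam8, a membrane protease, was at 63.9 and 372.

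**Figure D3:**
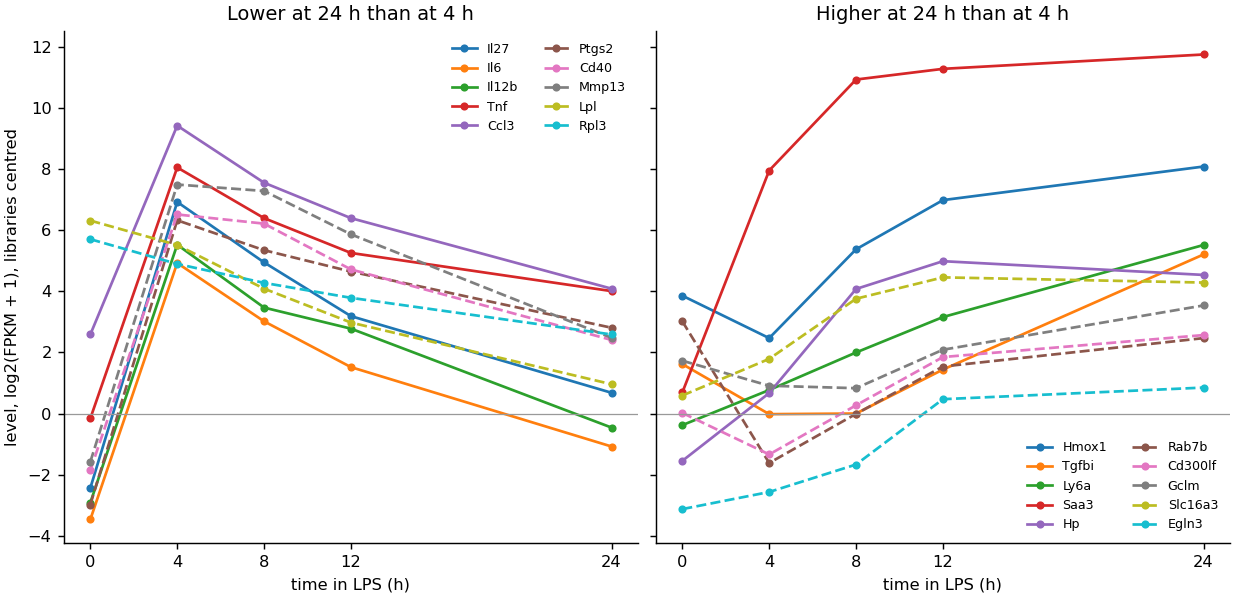
Centred level, log2(FPKM + 1), of 10 genes lower (left) and 10 genes higher (right) at 24 h than at 4 h, against hours in LPS; each point is 1 library. Most genes on the left peaked at 4 h, except Lpl and Rpl3, which were highest at 0 h; on the right Rab7b, Tgfbi, Hmox1, Gclm and Cd300lf were lower at 4 h than at 0 h before they climbed.

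On the late side, Hmox1 had the largest positive difference among genes of at least 10 FPKM at either time. Hmox1 (chr8:75093618-75100593, GRCm38) encodes heme oxygenase, which breaks heme down to biliverdin, iron and carbon monoxide. It stood at 177 FPKM before LPS, 44.2 after 4 h, 369 after 8 h, 1255 after 12 h and 3228 after 24 h, a difference of 5.63 (interval 41.8 to 46.7 after 4 h and 3208 to 3249 after 24 h). The 4 h library was below the 0 h library and every later one was above it. Of 22 genes of heme breakdown and iron handling 6 were higher and 2 lower (median 0.43), against 11 and 1 without centring. The summed FPKM of the list was 47006.9 before LPS, 17673.8 after 4 h and 49497.3 after 24 h. Its median centred level was 2.73, 2.32 and 2.23 at these times, so as a group it was not above the 0 h level by that median. Slc48a1, which carries heme out of the phagolysosome, was at 35.7 FPKM after 4 h and 284 after 24 h, the iron exporter Slc40a1 at 1.84 and 32.9, and Lcn2, which binds the iron carriers of bacteria, at 183 and 1643. Spic, the factor of iron-recycling macrophages, was at 4.61 FPKM after 4 h and 33.5 after 24 h. The ferritin genes Fth1 (11905 and 33082 FPKM, a difference of 0.94) and Ftl1 (4679 and 9873, 0.54) lay within 2-fold once centred, and Trf, transferrin, was lower, at 104 and 24.8.

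The antioxidant genes controlled by NRF2 overlapped with these and were more often higher than lower. Of 35 tested, 11 were higher, 2 lower and 22 within 2-fold (median 0.37). Without centring 17 were higher and 1 lower. Both subunits of the enzyme that starts glutathione synthesis were higher: Gclm, whose promoter stretch is printed above, stood at 39.6 FPKM before LPS, 14.3 after 4 h, 14.8 after 8 h, 41.1 after 12 h and 136 after 24 h, and Gclc at 10.6, 2.69, 4.02, 10.3 and 23.9. Both were thus low at 4 h and 8 h and passed the 0 h level by 24 h. Peroxide-removing enzymes followed, with Prdx1 at 789.7 and 4455 FPKM after 4 h and 24 h, Prdx6 at 15.1 and 129.8 and Srxn1, which restores oxidised peroxiredoxins, at 24.6 and 152. Thioredoxin reductase Txnrd1 (108 and 153 FPKM, a difference of -0.04) and the cystine importer Slc7a11 (27.4 and 42.2, 0.07) lay within 2-fold. The mRNA of NRF2 itself, Nfe2l2, was at 109 and 79.8 FPKM, a difference of -0.98. The metallothionein genes Mt2 (173 and 43.1) and Mt1 (211 and 139.8) were the lower members, Mt1 only with centring.

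Glycolysis, the conversion of glucose to pyruvate and lactate, had the highest median among the lists shown in the plot of list members. Of 27 tested, 13 were higher, 4 lower and 10 within 2-fold (median 0.85, or 1.38 without centring), and 20 of 27 were higher at 12 h than at 8 h. The median centred level of the list was highest at 12 h: 2.57 after 4 h, 3.24 after 8 h, 3.99 after 12 h and 3.02 after 24 h. Enzymes along the pathway were higher: Gpi1, which acts on glucose phosphate, stood at 63.4 FPKM after 4 h and 333 after 24 h, Tpi1 at 82.3 and 629.9, Gapdh at 568 and 2900.1, Pgk1 at 173 and 913, Eno1 at 134 and 988 and Pkm, pyruvate kinase, at 379 and 2235. Lactate dehydrogenase Ldha was at 188 and 787 and the lactate exporter Slc16a3 at 27.3, 119, 217 and 230.0 FPKM from 4 h to 24 h. The first steps were mixed. The glucose carrier Slc2a6 was at 383 and 95.1, hexokinase Hk2 at 47.6 and 29.2, the phosphofructokinase form Pfkp at 72.3 and 18.6, while the form Pfkl was at 14.6 and 69.3. Hk2 lay within 2-fold without centring. The carrier Slc2a1 (47.0 and 124 FPKM, 0.85) and the regulator Pfkfb3 (193 and 201, -0.48) lay within 2-fold. Gapdh, often used as a reference gene, was thus among the higher genes.

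Targets of the hypoxia-inducible factors, which include much of glycolysis, had 12 of 30 members higher and 5 lower (median 0.76), or 19 and 2 without centring. Egln3, an oxygen-sensing prolyl hydroxylase, was at 0.38 FPKM after 4 h, 1.78 after 8 h, 12.7 after 12 h and 20.3 after 24 h (interval 0.23 to 0.59 after 4 h and 19.1 to 21.6 after 24 h). Ankrd37 was at 0.12 and 22.5 FPKM after 4 h and 24 h, Vegfa, an angiogenic factor, at 2.27 and 19.2, and Ero1l, an oxidase of the endoplasmic reticulum, at 11.7 and 76.2. The mRNA of the factor itself, Hif1a, was lower only with centring, at 68.3 FPKM after 4 h, 139 after 12 h and 44.0 after 24 h. Edn1, endothelin, was the lowest member, at 342 and 8.36. The TCA cycle and the respiratory chain showed neither pattern: of 24 TCA genes 1 was lower and none higher, and of 75 nuclear-encoded respiratory chain genes 3 were lower and 1 higher, against none lower and 2 higher in each list without centring. Their medians of -0.23 and -0.28 changed sign without centring (up to 0.30 and 0.25). In the pentose phosphate pathway, which makes NADPH, G6pdx was at 54.4 and 177 FPKM and H6pd at 5.04 and 20.4, and the other 8 of 10 lay within 2-fold.

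Acute-phase and antimicrobial genes held the largest transcript of the late library. Saa3 (chr7:46711998-46719615, GRCm38), a serum amyloid that macrophages secrete, stood at 18.7 FPKM before LPS, 2036 after 4 h, 17416 after 8 h, 24852 after 12 h and 40998 after 24 h, a difference of 3.80. Hp, the hemoglobin scavenger haptoglobin, was at 12.0, 149, 315 and 274 FPKM from 4 h to 24 h, the protease inhibitor Slpi at 12.2, 45.9, 132 and 150.4, and the complement factor Cfb at 80.2, 609, 1097 and 1148. All 4 were above their 4 h level by 8 h. The list was divided, with 8 of 36 members higher and 11 lower, but 13 higher and 6 lower without centring, where its median was 0.38 in place of -0.15. Among the lower members were the complement subunits C1qa (214 and 149 FPKM) and C1qb (1224 and 682), the pentraxin Ptx3 (17.5 and 1.42, with 61.0 after 8 h), and Acod1, which makes itaconate (3121 and 2145). Without centring C1qa, C1qb and Acod1 lay within 2-fold. Camp and Chil3 were lower too (6.78 and 0.93 FPKM, and 29.7 and 5.39), and Camp is also on the neutrophil list whose summed FPKM was lower at 24 h, as given above. Nos2, inducible nitric oxide synthase, lay within 2-fold, at 291 and 761 FPKM.

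**Figure D4:**
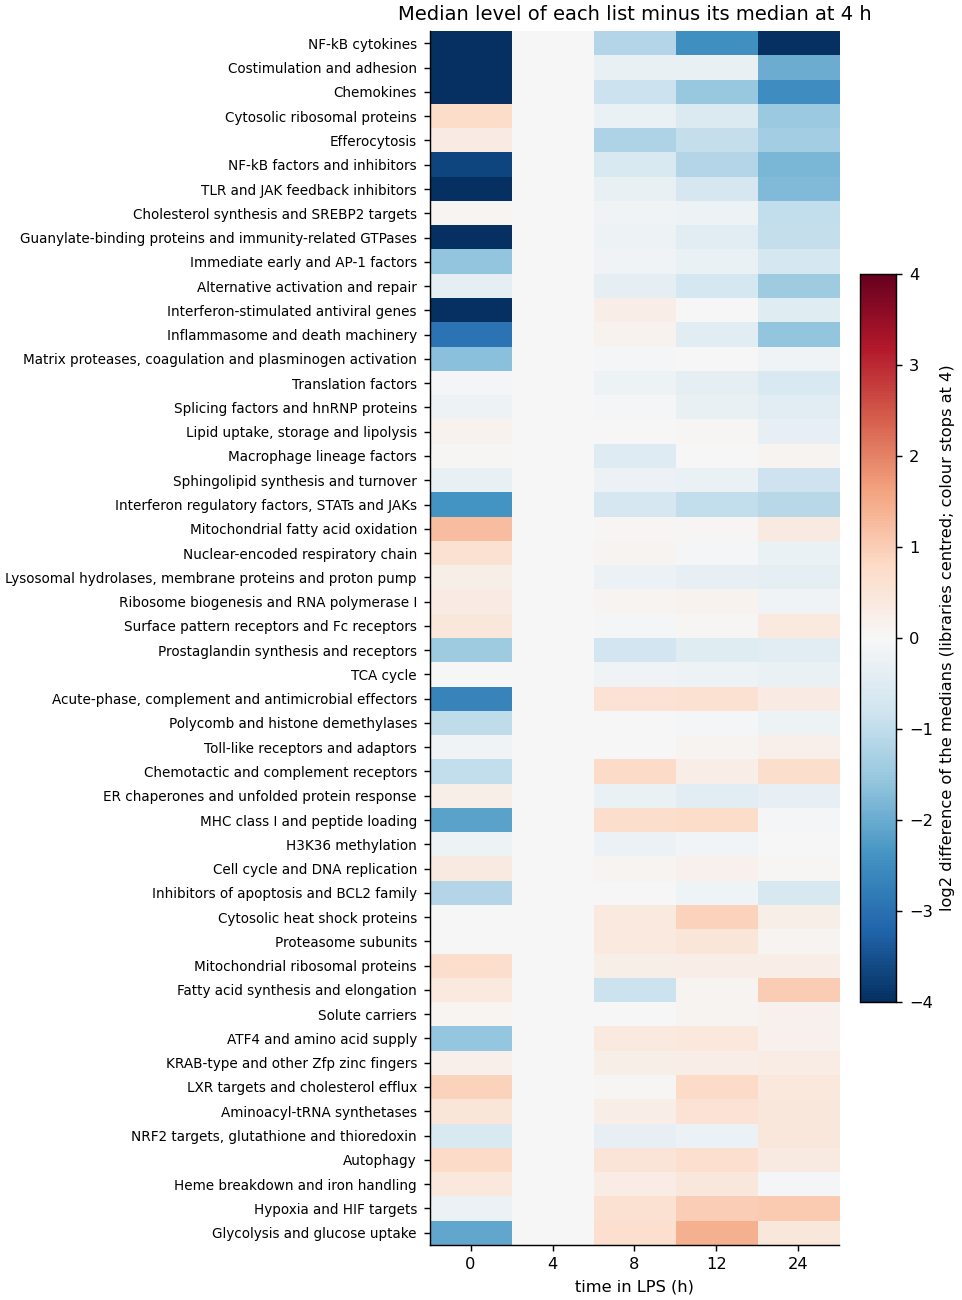
Median centred level of each gene list of at least 15 tested genes at 0, 4, 8, 12 and 24 h of LPS (columns), minus its median at 4 h; red is above and blue below the 4 h median, in log2 units, with 1 library per column. Cytokine, chemokine and feedback lists are below their 4 h median both at 0 h and at 24 h, whereas cytosolic ribosomal proteins and efferocytosis genes are above it at 0 h and below it at 24 h.

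Genes of repair and of the uptake of dying cells were lower as groups at 24 h, like the cytokines. Of 22 efferocytosis genes 16 were lower and 2 higher (median -1.45), or 10 and 2 without centring (median -0.91). Anxa1, a pro-resolving protein, was at 598 FPKM after 4 h and 78.4 after 24 h, the bridging protein genes Mfge8 and Gas6 at 246 and 79.4 and at 63.7 and 19.3, and the receptor Mertk at 50.1 and 17.4. The 2 higher members were the lipid-binding receptors Cd300lf (2.22 and 69.2 FPKM) and Cd300lb (1.75 and 20.1, below 120.4 before LPS). Of 23 genes of alternative activation and repair 13 were lower and 3 higher (median -1.02), or 8 and 3 without centring (median -0.48). The mannose receptor Mrc1 was at 34.4 and 0.89 FPKM and Trem2, a lipid-sensing receptor, at 307 and 58.8. Tgfbi, a matrix protein induced by TGF beta, was the exception with the largest size: it stood at 36.7 FPKM before LPS, 7.04 after 4 h, 7.86 after 8 h, 25.9 after 12 h and 437 after 24 h, a difference of 5.23, of which most lay between 12 h and 24 h. Arg1, arginase, also appeared late, at 0.04 FPKM after 4 h, 1.86 after 12 h and 21.8 after 24 h; its 4 h value stands for about 1 read (interval 0.00 to 0.21), so no fold is given.

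Lipid genes divided by branch. Cholesterol synthesis and other targets of the sterol factor SREBP2 were lower in 14 of 24 cases and higher in none (median -1.24; 9 and 1 without centring), and 19 of 24 were lower at 12 h than at 8 h. Hmgcs1, whose sterol element match is printed above, stood at 47.6 FPKM after 4 h, 34.6 after 8 h, 15 after 12 h and 12.7 after 24 h. Idi1 was at 35.9 and 6.69 after 4 h and 24 h, and Insig1, the sterol-sensing retention protein, at 55.4 and 19.1. Among LXR targets, which export cholesterol, 6 of 17 were higher and 5 lower (median 0.30). The exporter Abca1 was at 10.4 and 33.4 FPKM, Abcg1 at 7.98 and 37.5, and the factor Nr1h3 at 15.9 and 67.3, against lower values of Apoe (8270.1 and 4694) and of Ch25h, which makes an oxysterol (22 and 2.02). Without centring Apoe lay within 2-fold. In fatty acid synthesis 5 of 15 genes were higher and 1 lower (median 0.16): the desaturase Scd2 was at 0.97 and 20.6 FPKM and the acyl-CoA synthetase Acsl1 at 42.3, 127, 171 and 242 from 4 h to 24 h. Lipoprotein lipase Lpl was at 974 FPKM before LPS, 374 after 4 h, 149.7 after 8 h, 77.2 after 12 h and 22.1 after 24 h, lower at each time than at the one before.

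Cytosolic ribosomal protein genes were lower at 24 h almost throughout. Of 78 tested, 72 were lower and none higher (median -1.54), the other 6 had differences below 0 too, and 77 of 78 were lower at 12 h than at 8 h. Without centring 41 were lower, with a median of -1.0. Rpl10a was at 187 FPKM after 4 h, 141 after 8 h, 100.2 after 12 h and 27.3 after 24 h, and Rpl3 at 243, 171, 136 and 70.2. Their median level was also lower at 4 h than at 0 h, so the 24 h library was below both earlier ones. Reads of ribosomal protein genes may be shared with their many pseudogenes. The submitters' notes name RSEM, without a version, and a source for the annotation is not given. The division of such reads was not checked here. Eef1a1, the elongation factor that brings tRNA to the ribosome, followed, at 2655 FPKM after 4 h and 409 after 24 h (interval 2637 to 2672 and 403 to 416). Of 54 translation factors 12 were lower and none higher, but 3 were lower and 7 higher without centring. Mitochondrial ribosomal proteins differed from the cytosolic ones: their median was 0.11, and 6 of 77 passed 2-fold upwards and 1 downwards. The share upwards was near the 8.94% of all genes. Without centring 21 were higher, also near the share of all genes (2448 of 9795). Mrpl45, one of the higher members, stood at 6.35 and 24.2 FPKM.

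**Figure D5:**
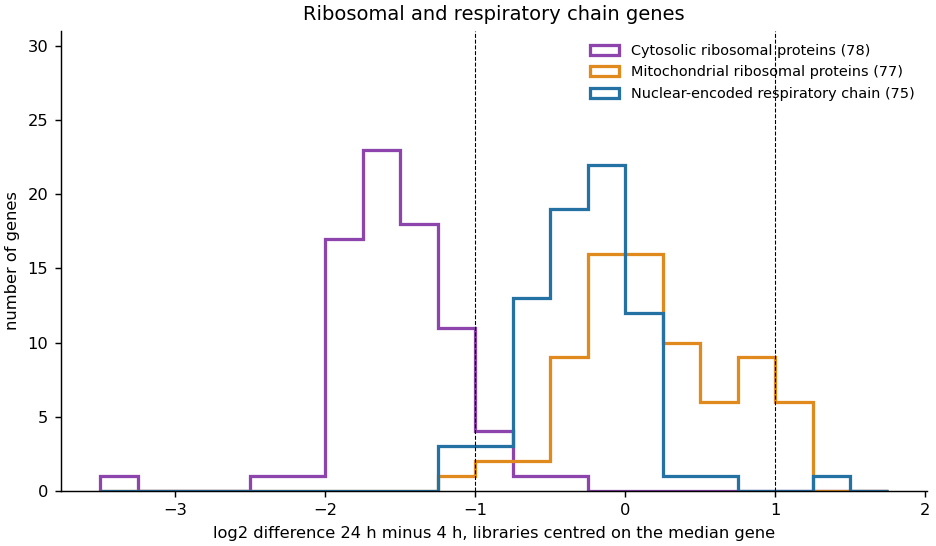
Number of genes (vertical axis) by centred log2 difference between 24 h and 4 h (horizontal axis, bins of 0.25) for cytosolic ribosomal proteins, mitochondrial ribosomal proteins and nuclear-encoded respiratory chain genes; the dashed lines mark 2-fold. The cytosolic ribosomal proteins lie mostly between -2 and -1, the other groups mostly around 0.

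Lists of stress, recycling and antigen presentation genes differed among themselves. Of 32 autophagy genes 7 were higher and 2 lower (median 0.38; 15 and 1 without centring): Uvrag was at 4.36 and 26.0 FPKM, the cargo receptor Nbr1 at 4.83 and 25, and Tfeb, the factor that controls lysosome genes, at 48.6 FPKM before LPS, 1.32 after 4 h and 11 after 24 h. Of 42 lysosome genes 7 were lower, about the 16.0% of all genes that were lower, and 1 higher (median -0.27). Without centring 1 was lower and 6 higher (median 0.26), with Atp6v0d2, a proton pump subunit, at 70.8 and 6.20. Of 26 genes of the amino acid response 7 were higher and 4 lower (median 0.18; 11 and 1 without centring), the higher ones including its factors Atf4 (69.4 and 257) and Ddit3 (4.73 and 52.6), but Psat1, of serine synthesis, was at 19.4 and 1.78. Of 18 heat shock genes 3 were higher and 1 lower (median 0.03), or 5 and 1 without centring (median 0.57). The inducible pair Hspa1a (2.85, 15.9, 83.5 and 43.1 FPKM from 4 h to 24 h) and Hspa1b was higher, and as near-identical copies they may share reads. The MHC class I list had 5 of 23 members higher, all of them class I genes of the H2-Q and H2-T groups, such as H2-Q7 (15.8 and 154 FPKM), whose values are uncertain because the copies are alike. Its 2 lower members were the activator Nlrc5 (75 and 27.3) and Psme2. Of 11 class II genes 5 were lower and none higher (median -0.65), or 4 and 2 without centring (median -0.12). With the length trend removed the median was -1.31, over the 9 genes with a known length. The invariant chain Cd74 was at 617 FPKM after 4 h, 814 after 8 h, 735 after 12 h and 285 after 24 h.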

How the data were processed

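RNA sequencing libraries of mouse macrophages after 0, 4, 8, 12 and 24 h of LPS were used, 1 per time, assigned by title and time label. The authors deposited FPKM, 1 column per library, per the file headers. The submitters' processing notes name Bowtie2, RSEM and GRCm38, without versions, and for the annotation a source is not given in the sources used here. Values in FPKM depend on the other genes of the library and on how reads of similar genes were divided. In 20 cases a symbol turned into a date was restored by gene identifier from RefSeq. Genes with a mean below 1 FPKM (3544) were left out, and a pseudocount of 1 was added. Whole reads could not be recovered (52.3% to 64.2% of low values came out whole within 0.04 reads, against 24.8% to 25.8% by chance, for a step chosen for the best match), so no count test was run. The 62 gene lists and the comparison were chosen with earlier results of these data known. Genes were named as the 15 largest differences each way at 10 FPKM or more, and in each list up to 6 members in the main and 3 in the other direction at 5 FPKM or more. Genes outside this rule (such as Gapdh, Ldha, Isg15, Ifnb1, Tlr4, Nos2, Acod1, Prdx1, Txnrd1, Slc7a11, Csf1, Apoe, Pfkl, Pfkfb3, Slc2a1, Hif1a, Osm, Setd2, cell type markers, the ferritins and complement genes) were named after their values were seen. Promoters and gene positions came from RefSeq (GRCm38.p6) and transcript lengths, known for 96.8% of genes, from GENCODE. Python 3.11.15, numpy 2.4.6, pandas 2.3.3 and scipy 1.17.1 were used, and the steps were tested on simulated data. Alternatives covered scaling, pseudocount, filter and joined times.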

Additional observations from a re-analysis of the deposited data

How the results depend on the processing

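The 876 higher and 1572 lower genes depended most on scaling. Without centring the counts were 2448 and 802, including all 876 higher genes. With a common 75th percentile they were 1900 and 1023. With FPKM scaled to the same sum 2394 were higher. A pseudocount of 0.1 gave 1606 higher genes and a pseudocount of 5 gave 336 and 995. The mean of 12 and 24 h against that of 4 and 8 h gave 388 and 790, nearly all of them genes also counted between 24 h and 4 h (388 and 788). Counts under the other settings stayed within 1.5 times. One of these, chosen after seeing the data, multiplied FPKM to a common median before the pseudocount and gave 1053 and 1567.

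The share of lower genes that were also lower at 12 h than at 8 h was 91.1% without centring, 88.6% with FPKM scaled to the same sum, 90.6% and 96.0% with pseudocounts of 0.1 and 5, and 94.7% without a filter. For higher genes it was 89.9%, 98.2% and 91.3% with those pseudocounts and without a filter. Under the 5 other scalings, 24 lists changed sign, with centred medians between -0.50 (splicing factors) and 0.04 (proteasome). No paired analysis was possible because each time was 1 library. For the same reason no library could be left out. Depth limits little: of 2365 genes beyond 2-fold with a known length, 5 had under 20 estimated reads at both times.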

Other observations

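Shares beyond 2-fold in the cell cycle, splicing and zinc finger lists were near or below those of all genes (8.94% higher and 16.0% lower). Single members differed more, and other lists exceeded at least 1 of these shares. Of 164 solute carriers 30 were higher and 24 lower (59 and 12 without centring), so only their higher share exceeded that of all genes. Of 28 macrophage lineage factors 7 were higher and 8 lower (8 and 5). Of 12 purinergic receptors 2 were higher and 6 lower (3 and 3 without centring). Cyclin D and CDK inhibitors had 5 of 13 lower and none higher (4 and 4 without centring). Of 12 circadian clock genes tested 3 were higher and 1 lower (median 0.35): Per1, a repressor of the clock, stood at 6.46 FPKM before LPS, 0.38 after 4 h, 3.54 after 8 h, 10.5 after 12 h and 8.45 after 24 h, and Tef at 16.3, 0.75, 1.56, 4.59 and 8.08, while Nfil3 was lower (a difference of -1.37). Of 30 cell cycle genes 24 lay within 2-fold, though Mki67, a marker of dividing cells, had a difference of -3.36, and 22 of 52 listed members fell below the filter. The cell cycle inhibitor Cdkn1a was at 1047 and 328 FPKM. Of 23 enzymes and readers of H3K36 methylation, 3 were higher and 4 lower (5 and 1 without centring), and Setd2, the trimethylase named in the series title, was at 8.40 and 12.4 FPKM, a difference of -0.02. Among 55 splicing genes 10 were lower and 1 higher (median -0.50, above 0 at 0.04 without centring), with Tra2a at 150.2 and 15.7 FPKM. Of 224 zinc finger genes of the Zfp series, 14 were higher and 9 lower, below both shares of all genes, but 74 and 3 without centring.

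Some families, picked after their values were seen, held genes on 1 side. In the Ly6 family of surface proteins 5 of 8 were higher and 1 lower, with Ly6a at 12.9, 34.5, 87.6 and 541 FPKM from 4 h to 24 h and Ly6i at 1.64 and 88.0; close copies may share reads, and the neutrophil marker Ly6g (0.19 and 3.71) is one of them. In the S100a family of calcium-binding proteins 7 of 8 were lower, with S100a4 at 117 and 11.1 FPKM and S100a9, also a neutrophil marker, at 159 and 7.14. In the annexin family 6 of 9 were lower and none higher, led by Anxa3 (93.9 and 9.99 FPKM). Of 7 Schlafen genes 5 were lower, among them Slfn5 (509 and 193), whereas Slfn4 stood at 51.6, 236, 431 and 567 FPKM. Some genes were far lower at 4 h than in the 0 h and 24 h libraries, such as Rab7b, a small GTPase of late endosomes (97.9 FPKM before LPS, 1.65 after 4 h and 64.7 after 24 h), and Tmem104 (32.7, 1.51 and 54.8). Bst1, an ectoenzyme related to Cd38, was at 3.48, 35.0, 72.0 and 85.7 FPKM from 4 h to 24 h.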
